A study of Rattus norvegicus with 12 samples.

Results

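Renal cortex of cisplatin-treated rats was compared directly between 2 dosing schedules: 3 animals dosed by intravenous injection and 3 dosed by gavage, a tube into the stomach. These 6 arrays were taken from the 12 of the series by their labelled treatment and administration, with no use of measured values. All animals were male Sprague-Dawley (Crl:CD(SD)) rats bought at 5 weeks of age, and dosing lasted 4 weeks. The gavage animals are labelled cisplatin at 3.75 mg/kg/day (experiment B114) and the intravenous animals at 0.75 mg/kg/day (experiment B15-6). A treatment text shared by all samples gives only the dose of 3.75 mg/kg/day, so the lower dose rests on the individual sample labels. The other 6 arrays, from rats given water by the same routes, enter no test of this comparison except where a fit to 12 arrays is named. Each array held RNA from 1 animal on a 1-colour Agilent array, in which the brightness of a probe reports the amount of its transcript.

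Cisplatin is a platinum drug that forms crosslinks in DNA, and the proximal tubule of the renal cortex takes it up from the blood through organic cation transport and is its best known site of toxicity. Injured proximal tubule cells lose transporters and mitochondrial metabolism and make secreted or shed injury proteins, among them KIM-1 (Havcr1), NGAL (Lcn2) and clusterin (Clu), while DNA damage activates p53 and its target Cdkn1a. Haemoglobin chains are made in maturing red blood cells, whose RNA is carried by the blood held in a tissue sample, and cisplatin also harms the blood-forming marrow.

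Levels below are log2 processed intensity minus the 75th percentile of the same array, so 0 is the 75th percentile. Differences are intravenous minus gavage on that log2 scale, so a positive value means a higher level after intravenous dosing. A feature is a named gene or a probe without a name. The test took in 33560 of 48976 features, those detected above background in every animal of the gavage or the intravenous cisplatin group, and 12371 of them carry a gene name. On these arrays the signal had its 75th percentile between 1387 and 1532. Between 71.0% and 73.9% of probes were well above background on 5 of them, and 66.2% on intravenous replicate 3, whose dimmest accepted signal was also higher (32.6 against 19.1 to 23.4). All 12 proximal tubule markers examined were above background on every one of the 6 arrays, as were 24 of 25 podocyte markers on the array. The intravenous cisplatin arrays were the only arrays of the series on their slide, which had its own scan. Gavage replicate 1 lay on another slide, and gavage replicates 2 and 3 on a further one. Route, dose, experiment and slide therefore cannot be told apart in any value below. The animals are separate, but nothing in the labels ties an animal of one experiment to one of the other.

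No gene passed the test between intravenous and gavage cisplatin, and the correlations between animals of different groups overlapped those within a group. Of 33560 features 0 (0%) had an adjusted p under 0.05 in limma fitted to the 6 arrays. The lowest adjusted p, 0.119, belonged to the unnamed probe A_44_P131311, which was above background on all 3 gavage arrays and on no intravenous array. It entered the test only through the group where it was higher. The next lowest adjusted p was 0.454. When only features above background on all 6 arrays were tested by limma, the lowest was 0.492. With slide as a random block 1 feature passed, and with all 12 arrays in 1 limma fit 12 did. At an unadjusted p under 0.05, 3344 features (9.96%) were counted. The 3 intravenous values lay entirely above or below the 3 gavage values for 5317 features (15.8%): above for 2283 (6.8%) and below for 3034 (9.04%). Among named genes these shares were 8.19% above and 6.23% below, and 1047 (8.46%) had an unadjusted p under 0.05. The median difference was -0.05 over all features and -0.01 over named genes.

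The precision limits how much could have been missed. The 95% interval of the difference had a median half-width of 0.39, and for 27199 features (81.0%) it lay wholly within a 2-fold difference in either direction. An estimate beyond 2-fold was seen for 891 features (2.65%), 512 higher and 379 lower after intravenous dosing, with no call. The median SD between animals was 0.17 in the gavage and 0.18 in the intravenous cisplatin group, against 0.12 and 0.13 in the water groups. With 3 animals against 3, an exact permutation test of 1 gene could not go below p = 0.1.

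**Figure D1:**
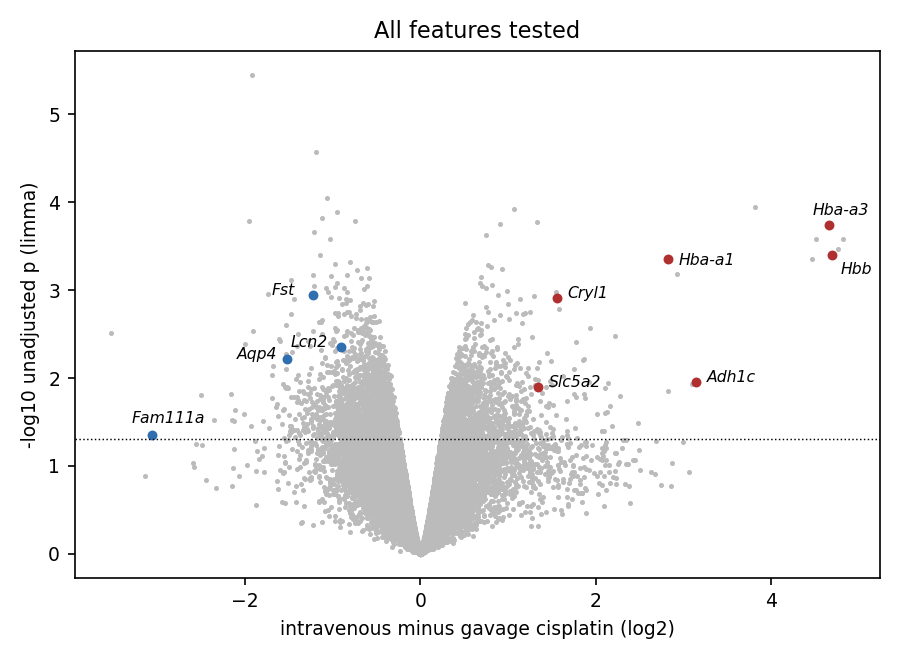
Each grey point is 1 of the 33560 features, with the intravenous minus gavage cisplatin difference (log2) on the horizontal axis and -log10 of the unadjusted limma p on the vertical axis; the dotted line marks an unadjusted value of 0.05. Named points are coloured by sign, and the haemoglobin genes lie far to the right, with differences of 2.83 to 4.83.

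The animals of one group were not uniform. Across the 33560 features, the closest pair of cisplatin arrays was gavage replicate 1 and intravenous replicate 1 (Pearson r = 0.993), which lay in different experiments. Correlations were 0.989 to 0.991 among the gavage arrays, 0.991 between intravenous replicates 2 and 3, and 0.984 and 0.983 between those 2 arrays and intravenous replicate 1. The lowest of the 6-array correlations was between gavage replicate 3 and intravenous replicate 3 (0.971). Principal component analysis put 52.5% of the variance on its first axis, with gavage replicate 3 (-64.4) at one end and intravenous replicates 2 and 3 (51.4 and 68.9) at the other. Intravenous replicate 1 had a score of -23.3, among the gavage animals at -18.5 and -14.1. These correlations are across genes, which are not independent replicates, and arrays of one slide share a hybridisation, so they are given as a description. The order of animals on this axis recurs in the tubule genes below.

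**Figure D2:**
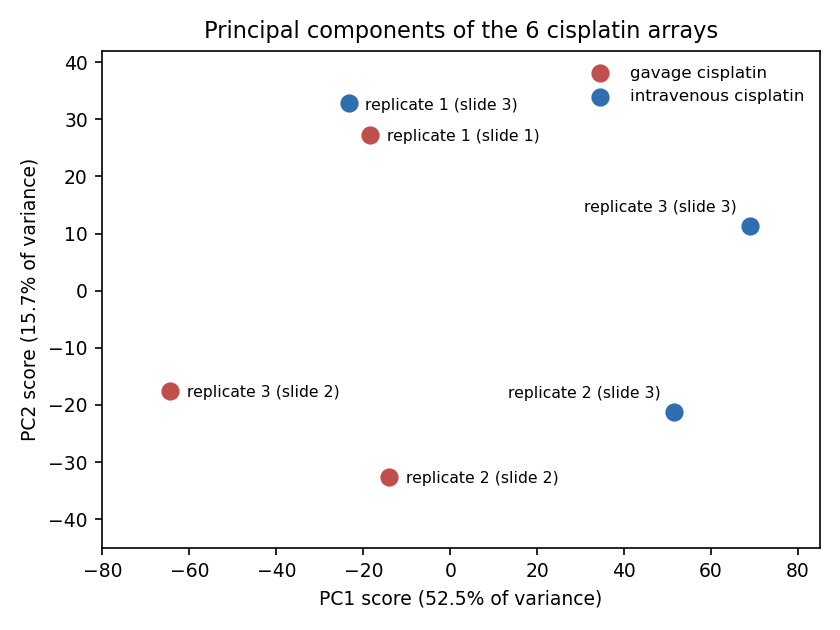
Scores of the 6 cisplatin arrays on the first 2 principal components (percent of variance on each axis), coloured by route and labelled with replicate and slide. Intravenous replicate 1 lies beside gavage replicate 1, and intravenous replicates 2 and 3 lie apart at 51.4 and 68.9 on the first component.

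The largest differences of all named genes were in haemoglobin chains, which stood many-fold higher after intravenous dosing in each of the 3 animals. Hba-a3, an alpha-like globin chain, read -0.93, 0.43 and -1.63 in the 3 gavage animals. In the intravenous animals Hba-a3 read 3.80, 3.27 and 4.79. No intravenous animal overlapped a gavage animal, and the group means differed by 4.67 (SE 0.60, 95% interval 3.21 to 6.12), a 25.4-fold ratio. Its limma adjusted p over 33560 features was 0.490 with these 6 arrays. Hbb, the adult beta chain, read -1.19, 0.38 and -2.22 after gavage. After injection Hbb read 3.61, 2.98 and 4.48, a difference of 4.70 (SE 0.70, 95% interval 3.02 to 6.38). Within the gavage group, replicate 2 was highest and replicate 3 lowest for both genes, and within the intravenous group replicate 3 was highest and replicate 2 lowest.

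In the intravenous animals the other haemoglobin genes followed the same order. Hbb-b1 differed by 4.77 (95% interval 3.11 to 6.43), Hbb-bs by 4.47 and the alpha chain Hba-a1 by 2.83 (95% interval 1.80 to 3.86). Hbe2, annotated as an epsilon-type chain, differed by 4.83 on the probe that stood for it, while its second probe differed by -0.14. A second Hba-a1 probe gave 4.45. Haemoglobin genes are near-identical copies and a probe may capture more than 1 of them, so they are not separate observations. Because the gavage animals vary, leaving out gavage replicate 2 raised the Hbb difference to 5.39 and leaving out gavage replicate 3 lowered it to 4.09, and the Hbb-b1 difference to 5.43 and 4.17. Without gavage replicate 2 the values were 5.10 for Hbb-bs and 5.45 for Hbe2.

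Both cisplatin groups lay far below the water groups for these genes. Mean Hbb levels were 7.44 and 7.67 in the gavage and intravenous water animals, and mean Hba-a3 levels were 7.88 and 8.12. The Hbb difference from water was -8.45 after gavage cisplatin and -3.98 after intravenous cisplatin, while the water groups differed from each other by 0.23. When all 12 arrays shared 1 estimate of the spread, 12 features (0.0358%) passed for intravenous against gavage cisplatin, 9 higher (0.0268%) and 3 lower (0.00894%). The 6 haemoglobin genes were among the 9, with limma adjusted p between 0.0246 and 0.0279. Of the 12 calls, 5 were unnamed probes. Among them A_44_P452217 and A_44_P131311 were above background on no intravenous array and A_44_P296473 on no gavage array. A_44_P207855 was above background on 1 gavage array. These probes entered the test only through the group where they were higher. The 12-array fit borrows the smaller spread of the water animals.

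Red cell markers other than haemoglobin did not all share the direction. Of 32 genes on an erythroid list, 21 could be tested, none passed, and the median difference was 0.42, or 0.82 without intravenous replicate 1. Intravenous values lay above all gavage values for 9 of the 21 (42.9%) and below for 3 (14.3%), against 8.19% and 6.23% of named genes. Besides the 6 haemoglobin genes, the 9 comprised Alas2, Sptb and Fech, and the 3 were Epb42, Car1 and Klf1, all named here after their values were seen. Alas2, the first enzyme of haem synthesis in red cells, was above background on 1 of 3 gavage arrays and on all intravenous arrays, where it read -4.08, -4.11 and -2.86. Klf1, an erythroid transcription factor, differed by -0.30, and Car1, a red cell carbonic anhydrase, by -0.37. Of the erythroid markers 4, among them Hbe1, Gata1 and Rhag, were above background on none of the 6 arrays. Summed over those on the array, the linear level relative to the array's 75th percentile was 19.1 to 26.3 in gavage animals, 60.7 to 145 in intravenous animals and 890 to 1372 in water animals. In tissue RNA, fewer cells of a type and less RNA per cell cannot be told apart.

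The promoters of 4 haemoglobin genes are shown as 2 alpha-like and 2 beta-like chains from the family with the largest differences among named genes. Each run is the 200 bases before the RefSeq start in assembly GRCr8, read 5′ to 3′ on the minus strand that carries the gene: chr10:15842581-15842780 for Hba-a1, chr10:15816944-15817143 for Hba-a3, chr1:167663722-167663921 for Hbb and chr1:167643521-167643720 for Hbb-b1. Capitals mark CACCC, the box bound by Krüppel-like factors, CCAAT, the box of many promoters, and GATAA, the core read by GATA factors. Both strands were searched, and no matches overlap.
Hba-a1: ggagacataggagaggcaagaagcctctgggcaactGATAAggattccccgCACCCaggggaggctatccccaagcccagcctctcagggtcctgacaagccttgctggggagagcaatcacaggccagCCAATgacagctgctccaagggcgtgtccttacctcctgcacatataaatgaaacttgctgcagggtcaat
Hba-a3: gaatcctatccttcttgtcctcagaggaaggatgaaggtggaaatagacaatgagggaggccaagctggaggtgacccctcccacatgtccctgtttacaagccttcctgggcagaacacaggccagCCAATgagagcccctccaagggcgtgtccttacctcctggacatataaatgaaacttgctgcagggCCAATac
Hbb: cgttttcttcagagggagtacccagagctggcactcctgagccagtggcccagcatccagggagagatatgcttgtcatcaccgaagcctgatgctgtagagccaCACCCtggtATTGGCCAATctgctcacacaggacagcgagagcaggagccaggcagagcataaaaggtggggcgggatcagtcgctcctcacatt
Hbb-b1: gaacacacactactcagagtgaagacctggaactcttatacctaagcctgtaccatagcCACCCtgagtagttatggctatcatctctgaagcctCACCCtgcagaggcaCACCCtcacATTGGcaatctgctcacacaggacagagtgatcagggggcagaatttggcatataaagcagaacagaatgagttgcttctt
Read over both strands, the Hba-a1 window held 1 of each element, the Hba-a3 window 2 of CCAAT, the Hbb window 1 of CACCC and 2 of CCAAT, and the Hbb-b1 window 3 of CACCC and 1 of CCAAT. Of 33469 annotated windows of the same length, 42.9% held CACCC, 29.2% CCAAT and 19% GATAA. Such matches are a description of the letters and not of binding.

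Proximal tubule genes were higher on average after intravenous dosing, but mainly in intravenous replicates 2 and 3, and none passed the test. Of 44 tested members of a list of proximal tubule transporters, 42 had a positive difference and the median was 0.89, against -0.01 over all named genes. Intravenous replicates 2 and 3 lay above all gavage animals for 34 and 38 of the 44, and intravenous replicate 1 for 14. The mean deviation from each transporter's 6-array mean was -0.23, 0.01 and -1.16 in the gavage animals and -0.33, 0.70 and 1.01 in the intravenous animals. Values of the groups did not overlap for 11 of the 44 (25.0%), all higher, against 8.19% of named genes. Summed over 12 proximal tubule markers, the linear level was 131 to 268 after gavage and 218 to 700 after injection, with 1749 to 2116 in water animals.

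Single transporters show the 3 intravenous animals diverging. Slc34a1, the main phosphate carrier of the brush border, read 3.63, 4.89 and 1.79 after gavage. After injection Slc34a1 read 3.65, 6.43 and 6.58, so that the first intravenous animal overlapped the gavage group. Its difference was 2.12 with a 95% interval of -0.41 to 4.64, and it was 1.29 without gavage replicate 3, 3.07 without intravenous replicate 1 and 2.84 without gavage replicate 2. Slc22a2, the organic cation transporter OCT2 that carries cisplatin into tubule cells, read 0.36, 0.68 and -1.47 after gavage and -0.45, 2.72 and 3.10 after injection. The Slc22a2 difference was 1.93 (95% interval -0.58 to 4.45), with 1.27 without gavage replicate 3 or intravenous replicate 3 and 3.05 without intravenous replicate 1.

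Slc5a2, the glucose carrier SGLT2, had groups that did not overlap: 4.11, 3.94 and 3.80 after gavage. After injection Slc5a2 read 4.36, 5.85 and 5.68, with a difference of 1.34 (95% interval 0.40 to 2.29, limma adjusted p = 0.490). Slc9a3, the sodium-proton exchanger NHE3, differed by 1.18, Slc13a3, a dicarboxylate carrier, by 0.87, and Slc1a1, a glutamate carrier, by 0.40. Of these 3, Slc1a1 varied least: 1.36, 1.30 and 1.44 against 1.82, 1.69 and 1.78.

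Enzymes of the proximal tubule had the same direction, again mainly in intravenous replicates 2 and 3. All but 3 of 43 tested members of the enzyme and glucose synthesis list had a positive difference, and the median was 0.95. Intravenous replicates 2 and 3 lay above all gavage animals for 38 and 39 of the 43, and replicate 1 for 12. The mean deviation was -0.27 in intravenous replicate 1, against -0.32, -0.04 and -0.92 in the gavage animals. The groups did not overlap for 11 (25.6%), each higher after injection, against 8.19% of named genes. Ggt1, the brush border gamma-glutamyltransferase that starts glutathione breakdown, averaged 4.201 after gavage and 5.32 after injection, with SDs of 0.34 and 0.37 (n = 3) and groups that did not overlap, a difference of 1.11 (95% interval 0.52 to 1.71). Cryl1, a crystallin-related enzyme of the glucuronate pathway, was not on this list and was named for its large separated difference. It read 3.44, 3.59 and 2.94 against 4.81, 4.45 and 5.39. The Cryl1 difference was 1.56 (95% interval 0.88 to 2.24), with water means of 6.68 and 6.47. The Cryl1 difference from water was -3.35 after gavage cisplatin and -1.59 after intravenous cisplatin. Hnf4a, a transcription factor of tubule epithelium, read 1.03, 0.80 and 0.52 against 1.33, 2.00 and 2.79.

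**Figure D3:**
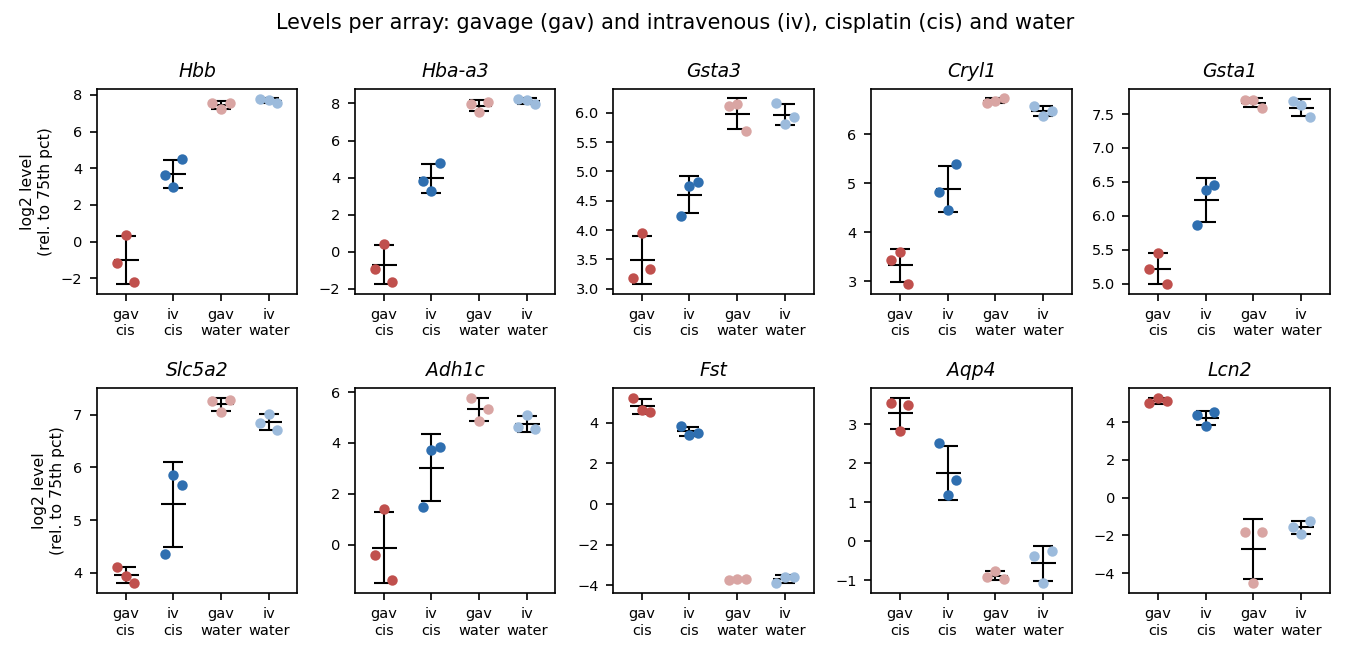
Log2 levels of 10 genes relative to the array's 75th percentile, 1 point per animal in replicate order, with the group mean and SD (n = 3) in black, for gavage (gav) and intravenous (iv) animals given cisplatin (cis) or water. For Hbb, Hba-a3 and Cryl1 the intravenous cisplatin animals lie between the gavage cisplatin and the water animals; for Fst, Aqp4 and Lcn2 they lie below the gavage cisplatin animals and above the water animals.

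Metabolic genes that serve the energy needs of the tubule leaned the same way by smaller amounts, mainly in intravenous replicates 2 and 3. For fatty acid oxidation, intravenous replicate 1 lay above all gavage animals for 11 of 45 genes, and replicates 2 and 3 for 35 and 39. For oxidative phosphorylation these counts were 21, 33 and 40 of 48. Fatty acid oxidation genes had a median difference of 0.37, with 41 of 45 positive. Of them 11 (24.4%) did not overlap, all higher after injection, against 8.19% of named genes. Acox2, a peroxisomal acyl-CoA oxidase, differed by 1.75 (1.048 with normexp background correction) and Acsm3, an acyl-CoA synthetase, by 1.92, the latter 1.27 without intravenous replicate 3. Of the oxidative phosphorylation genes 45 of 48 were positive and the median was 0.19. In this list 17 (35.4%) did not overlap, all higher, against 8.19% of named genes. A 95% interval within a 2-fold difference was held by 47 of the 48, and by 81.5% of named genes. Atp5f1a, a catalytic subunit of ATP synthase, read 7.30, 7.53 and 7.31 against 7.63, 7.91 and 7.90, a difference of 0.43. Members of one complex share animals and expression, so these counts are not independent.

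Among antioxidant and glutathione genes some had groups that did not overlap, and none passed the test. Gsta1, a glutathione transferase, read 5.21, 5.46 and 4.996 after gavage and 5.86, 6.38 and 6.45 after injection, a difference of 1.01 (SE 0.20). Gsta3 differed by 1.12, Gpx3, the secreted glutathione peroxidase made by the proximal tubule, by 0.82, and Gsr, glutathione reductase, by 0.52. In the antioxidant list headed by Nrf2 targets 40 of 55 were positive and the median was 0.23. There 11 (20%) did not overlap, all higher, against 8.19% of named genes. Intravenous replicate 1 was not an exception there: it lay above all gavage animals for 30 of 55, and replicates 2 and 3 for 28 and 30. Akr1b10 differed by 1.78, with 2.37 without gavage replicate 2. Of 57 tested drug metabolism genes 39 were positive and the median was 0.41, but 4 (7.02%) lay above and 2 (3.51%) below without overlap, no more than the 8.19% and 6.23% of named genes.

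Adh1c, an alcohol dehydrogenase, had one of the largest differences (3.15, 95% interval 1.00 to 5.29) but a wide spread: -0.39, 1.39 and -1.38 against 1.49, 3.74 and 3.83. It became 3.90 without gavage replicate 2, 2.52 without gavage replicate 3 and 3.91 without intravenous replicate 1. Akr1c1 differed by 2.14 (2.73 without intravenous replicate 1) and Rdh16, a retinol dehydrogenase, by 2.28 (3.01 without it).

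Umod had values far apart within the intravenous group. Umod, the uromodulin of the thick limb, read -1.04, 1.33 and -0.87 after gavage. After injection Umod read -1.57, 4.36 and 4.87, so that intravenous replicate 1 was the lowest of the 6 animals and the other two the highest. The difference of 2.75 had a 95% interval of -1.48 to 6.97. It was 4.81 without intravenous replicate 1, 1.84 without replicate 2, 1.59 without replicate 3 and 3.51 without gavage replicate 2. Egf, also made in the distal nephron, read -1.71, -0.997 and -1.71 against -1.17, 0.34 and 0.56. Both genes were far higher in water animals, with Umod at 8.75 and 8.88. Of 27 tested genes of the thick limb and distal tubule, 22 were positive and 3 (11.1%) did not overlap, Klk1, Slc8a1 and Cnnm2, all higher, against 8.19% of named genes. Cnnm2 is named after its values were seen. Klk1, tissue kallikrein, differed by 1.11.

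The kidney injury markers named here stood far above water in both groups, and most of the list had a small negative difference between them. Havcr1 (KIM-1) read 6.92, 6.53 and 6.70 after gavage and 6.94, 6.17 and 5.70 after injection, a difference of -0.45 (95% interval -1.204 to 0.31), against water means of -4.24 and -5.01. Clu read 7.35, 7.13 and 7.32 against 7.57, 7.35 and 7.33 (difference 0.15, 95% interval -0.15 to 0.44), and Spp1, osteopontin, differed by 0.07 (95% interval -0.42 to 0.56). Timp1, an inhibitor of matrix proteases, differed by -0.27 (95% interval -0.80 to 0.25). For Clu, Spp1 and Timp1 the interval excludes a 2-fold difference in either direction. Over 35 tested injury markers 29 had a negative difference and the median was -0.32. Of them 2 (5.71%) did not overlap, both lower, no more than the 6.23% of named genes. They were Lcn2, and Il24, named here after its values were seen. The median was -0.17 without gavage replicate 3, -0.13 without intravenous replicate 3 and -0.48 without intravenous replicate 1.

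Lcn2 was 1 of the 2 injury markers with separate groups, a share no larger than that among named genes. It read 4.99, 5.30 and 5.11 after gavage and 4.37, 3.79 and 4.52 after injection, a difference of -0.91 (95% interval -1.42 to -0.40, limma adjusted p = 0.490). Water means were -2.71 and -1.58, so both cisplatin groups stood far above them. Lcn2 is also carried by granulocytes. Of 15 tested granulocyte and mast cell genes 8 were positive and the median was 0.03. Of 27 such markers on the array 7, among them Elane and Ngp, were above background on none of the 6 arrays. The summed marker level was 35.5 to 43.1 after gavage and 18.2 to 26.8 after injection, a sum that Lcn2 itself dominates. The part of those cells in the Lcn2 difference was not tested.

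Targets of p53 mostly had intervals that exclude a 2-fold difference, as did 81.5% of named genes. Cdkn1a, the p21 inhibitor of cell cycle kinases, read 7.16, 7.06 and 7.09 after gavage and 7.35, 7.01 and 7.11 after injection, a difference of 0.05 (95% interval -0.25 to 0.35), and its 3 probes ranged from -0.14 to 0.05. Mdm2, which marks p53 for degradation, differed by -0.21 (95% interval -0.59 to 0.16) and Ccng1 by -0.20 (95% interval -0.59 to 0.18). The second Ccng1 probe differed by -0.80, outside that interval. Of 29 tested p53 targets 26 had an interval within a 2-fold difference and the median was -0.06, which was -0.12 without intravenous replicate 1 and 0.02 when arrays were scaled on spike-in probes. Zmat3, Tigar and Btg2 had groups that did not overlap, all lower after injection, at -0.37, -0.35 and -0.36. They are 10.3% of the list, against 6.23% of named genes and 9.04% of all features. The second Tigar probe differed by 0.08. Mean Cdkn1a levels in water animals were 1.52 and 1.67.

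**Figure D4:**
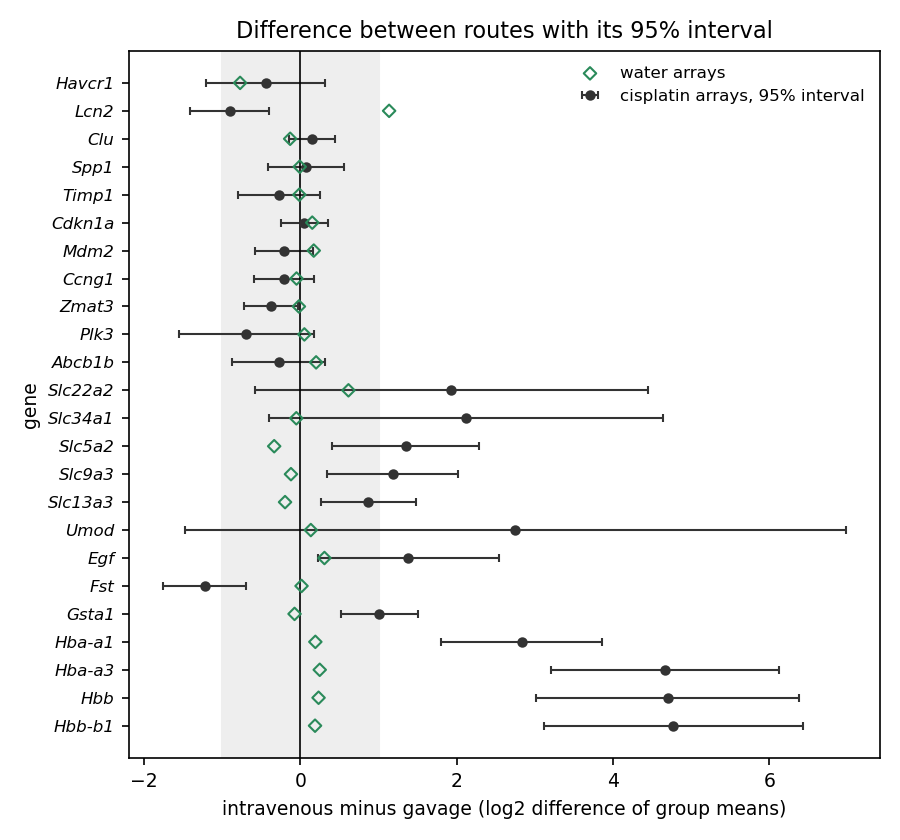
Intravenous minus gavage differences of 24 genes (log2) in cisplatin arrays with their 95% intervals (black; limma, n = 3 against 3) and in water arrays (green diamonds); the grey band marks a 2-fold difference in either direction. Intervals of Clu, Spp1, Timp1, Cdkn1a, Mdm2 and Ccng1 lie within the band, those of the 4 haemoglobin genes lie beyond it, and that of Umod spans -1.48 to 6.97. A second Ccng1 probe, not drawn, differed by -0.80.

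No gene of drug efflux or DNA repair passed the test. Of 24 tested genes on the efflux list, which holds transporters of the ABC family, 6 (25.0%) lay above all gavage values and 2 (8.33%) below, against 8.19% and 6.23% of named genes, and 15 had an interval within a 2-fold difference. The list's median was 0.13, and -0.04 without gavage replicate 3. Abcc6 differed by 0.68, Abca4 by 0.598 and Abcc10 by 0.38, each higher without overlap. Abcc9, a subunit of potassium channels, differed by -0.66, lower without overlap, and its 3 probes ranged from -0.66 to -0.17. Abcb1b, the P-glycoprotein efflux pump, read 6.99, 7.35 and 6.69 against 7.12, 6.39 and 6.68 (difference -0.28, 95% interval -0.87 to 0.31), far above its water means of -2.67 and -2.47. Of 41 repair genes all 41 had an interval within a 2-fold difference, against 81.5% of named genes, and their median difference was -0.01. Xrcc4, of end joining, differed by 0.39. Ftl1, the ferritin light chain, read 8.70, 8.57 and 8.64 against 8.97, 8.88 and 8.92. Ribosomal proteins had a median difference of -0.06, and all 75 tested had an interval within 2-fold.

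Follistatin had a lower level in every intravenous animal than in any gavage animal. Its SDs were 0.38 after gavage and 0.21 after injection (n = 3), above the median SDs of 0.17 and 0.18 over features. Fst, a secreted antagonist of activin, read 5.24, 4.63 and 4.55 after gavage. Fst read 3.82, 3.41 and 3.51 after injection, a difference of -1.23 (SE 0.22, 95% interval -1.75 to -0.70), and its 3 probes ranged from -1.27 to -1.23. In water animals it averaged -3.70 and -3.68. It was therefore 8.50 above water after gavage cisplatin and 7.26 above water after intravenous cisplatin. Smad7, an inhibitor of TGF-beta signalling, averaged 1.84 after gavage and 1.21 after injection without overlap, a difference of -0.63. Of 74 tested growth factor and TGF-beta family genes, 51 were negative, against 6351 of 12371 named genes, and the median was -0.14. Without overlap 8 (10.8%) were lower and 3 (4.05%) higher, against 6.23% and 8.19% of named genes. Over all features these shares were 9.04% and 6.8%.

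Aqp4, a water channel of the collecting duct that is strongest in the medulla, read 3.55, 2.82 and 3.49 after gavage and 2.53, 1.18 and 1.57 after injection, a difference of -1.53 (95% interval -2.44 to -0.61). Its water means were -0.89 and -0.58. The summed level of the inner medulla markers, Aqp4 among them, was 48.8 to 55.2 after gavage, 32.5 to 47.1 after injection and 9.89 to 10.5 in water animals, with 8 of 9 on the array above background on all 6. How far the depth of tissue sampled enters this was not tested. Aqp3, of the collecting duct, differed by -0.87 with overlap. Other collecting duct genes did not share this direction: of 34 tested 21 were positive, and the median was 0.10. Without overlap 2 (5.88%) lay above and 1 (2.94%) below, against 8.19% and 6.23% of named genes. Car12 differed by 0.79 and Rhbg by 0.67. Nupr1, a stress-induced nuclear protein, read 1.68, 1.96 and 2.22 against 0.71, 1.48 and 0.76.

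Genes of matrix and contractile cells were mostly lower after injection. Of 49 matrix and fibroblast genes 41 were negative with a median of -0.30. Without overlap 9 (18.4%) lay below and 1 (2.04%) above, against 6.23% and 8.19% of named genes. Mean deviations were 0.15, -0.02 and 0.40 in the gavage animals and 0.13, -0.09 and -0.58 in the intravenous animals, so intravenous replicate 1 again sat with the gavage group. Fbn1, fibrillin, differed by -0.72 and Ccn1 by -0.51. Acta2, smooth muscle actin and a mark of activated fibroblasts, read 0.78, 0.77 and 1.21 against 0.53, 0.10 and -0.66, a difference of -0.93. Ltbp2, a matrix protein, differed by -1.37 (-2.12 without intravenous replicate 1) with overlap. Of 37 immediate early genes 28 were negative. Without overlap 10 (27.0%) lay below and 1 (2.70%) above, against 6.23% and 8.19% of named genes. Nr4a3 differed by -1.06 (-0.324 with normexp background correction), Egr2 by -0.82 and Srf by -0.35. Other probes of Srf reached 0.07.

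Fam111a had the largest negative difference of a named gene, with a wide spread among the intravenous animals. It read 2.67, 2.503 and 2.82 after gavage and -3.35, 0.30 and 1.85 after injection, a difference of -3.06 (95% interval -6.02 to -0.10). It was -1.59 without intravenous replicate 1 and -4.19 without intravenous replicate 3. Water animals varied as widely, at -4.98, -6.10 and 0.70 with gavage water and -4.90, -5.60 and 0.35 with intravenous water. Fam111a encodes a nuclear protease linked to DNA replication.

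T and NK cell genes stood higher mainly in intravenous replicates 2 and 3, while the macrophage, chemokine and granulocyte lists stood higher in replicate 2 alone. Of 36 tested T and NK cell genes 30 were positive with a median of 0.53. Replicates 2 and 3 lay above all gavage animals for 29 and 27, and replicate 1 for 5. Cd8a, Cd8b, Lck and Gzmb were the 4 (11.1%) without overlap, all higher, a share near the 8.19% of named genes. Cd8a read -4.04, -4.02 and -4.20 after gavage and -3.81, -2.39 and -2.62 after injection, a difference of 1.15, and Gzmb, a granule protease of cytotoxic cells, differed by 1.48 (0.86 without gavage replicate 3). Ccl5, a chemokine of T cells, differed by 1.31. The summed T and NK marker level overlapped between the groups, 52.6 to 71.0 and 53.8 to 68.9, and Cd28, Klrb1 and Ifng were above background on none of the arrays. Macrophage sums were 260 to 341 and 273 to 349. Mean deviations of the macrophage list were -0.19, 0.33 and -0.13 in the intravenous animals, those of chemokines and NF-kB targets were -0.098, 0.26 and -0.11, and those of granulocyte and mast cell genes were -0.302, 0.25 and -0.08.

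Cell cycle genes set intravenous replicates 1 and 2 apart from the gavage animals in opposite directions. The 72 tested genes had a median difference of 0.08 and none without overlap, but mean deviations of -0.05, -0.08 and 0.05 in gavage animals against -0.37, 0.56 and -0.11 in intravenous animals. Intravenous replicate 2 lay above all gavage animals for 63 of the 72, replicate 3 for 18 and replicate 1 for 0. Replicate 1 lay below all gavage animals for 54, replicate 3 for 27 and replicate 2 for 2. Kif11, a spindle motor, read 1.19, 1.63 and 0.34 against 0.96, 2.39 and 2.501, so here replicate 3 was as high as replicate 2 and replicate 1 lay within the gavage range. Interferon response genes were likewise highest in intravenous replicate 2, at 0.43, and 36 of 42 were positive.

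**Figure D5:**
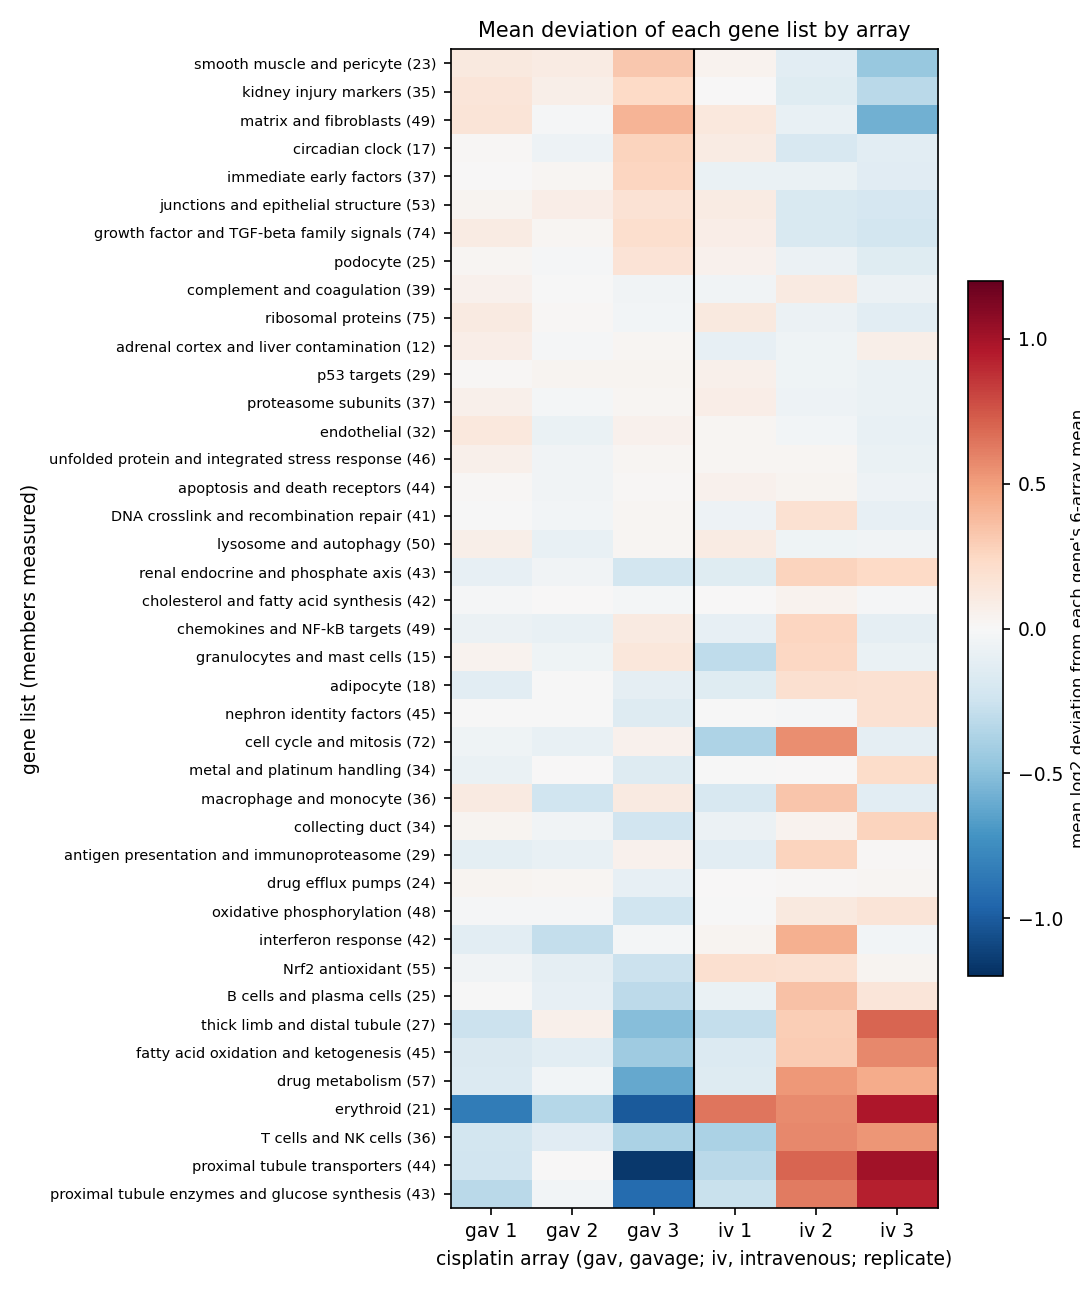
Mean deviation of the members of each of 41 gene lists from their own 6-array means (log2, colour) in the 3 gavage (gav) and 3 intravenous (iv) cisplatin arrays, ordered by the median difference, with the number of members measured in brackets. Proximal tubule lists run from -1.16 in gavage replicate 3 to 1.01 in intravenous replicate 3, with intravenous replicate 1 near the gavage animals, while the erythroid list separates the groups.

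Other genes of large difference had varied roles. Casr, the calcium-sensing receptor, differed by 1.16 with overlap and stood at 3.94 in gavage water animals. Bcl2l15, a relative of the BCL2 cell death regulators, read -2.81, -2.84 and -3.12 against -1.01, 0.44 and -1.55. Cebpa, a transcription factor of fat and myeloid cells, read -3.71, -3.82 and -3.81 against -3.13, -2.51 and -2.75, a difference of 0.99 with an interval of 0.57 to 1.40. Tmem178b, a membrane protein, was lower after injection at -3.12, -4.57 and -4.60 against -2.66, -1.76 and -1.86, a difference of -2.00 (-1.274 with normexp background correction). Tnfsf10, the death ligand TRAIL, differed by 0.75 and Bcl2l11, the death inducer BIM, by 0.52, each without overlap. Across the alternative scalings and background correction their lowest values were 0.42 for Tnfsf10 and 0.15 for Bcl2l11. Bcl2l11 was dim, at -5.27, -5.31 and -5.07 after gavage.

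Some genes were above background in 1 group alone. Of 12371 named genes tested, 3 were so on all intravenous arrays and no gavage array. Another 15 were so on all gavage arrays and no intravenous array. Each entered the test only through the group where it was higher, and at most 5 in each direction are given. Spata22, a meiotic protein, and Them4, a mitochondrial thioesterase, were well above background on all 3 intravenous arrays and on no gavage array, at least 3.11-fold and 2.11-fold higher; Ffar4, a fatty acid receptor, was at least 1.86-fold higher. In the other direction Olr1720 was at least 1.99-fold lower, Tnfrsf17 1.78-fold, Or4p7 1.65-fold, Stox2 1.59-fold and Or52s20 1.53-fold. With normexp background correction and its offset of 50, which draws dim signals together, the fitted log2 differences were smaller: 0.796 for Spata22, 0.417 for Them4, 0.484 for Ffar4, -0.324 for Olr1720, -0.199 for Tnfrsf17, -0.279 for Or4p7, -0.209 for Stox2 and -0.2105 for Or52s20. Under it all 8 fall short of the bounds given above, which hold for the main processing alone. These bounds set the bright group's mean against the higher of the dim probe's own signal and the lowest accepted signal of each dim array. That lowest accepted level was -5.41 on intravenous replicate 3, the highest of the 6 arrays. The fitted difference was 0.84 for Ffar4 without gavage replicate 3 and -0.76 for Olr1720 without gavage replicate 1.

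The same comparison between the water animals was made on the 2 slides that also held the gavage cisplatin arrays. All gavage water arrays lay on 1 of these slides, with gavage cisplatin replicate 1. All intravenous water arrays lay on the other, with gavage cisplatin replicates 2 and 3. Route, experiment and slide therefore cannot be told apart between the water groups either. With those 6 arrays 1011 features (3.01%) passed, 863 higher (2.57%) and 148 lower (0.441%) after intravenous water, with a median absolute difference of 0.69. None passed when all 12 arrays shared a spread, although 4765 were under an unadjusted p of 0.05 there, and the counts were 146 to 388 with 1 array left out. Of the 1011, 152 had the same sign in the cisplatin comparison, against 14858 of all 33560 features (44.3%). A fit of the cisplatin difference less the water difference, added after the data were seen, called 477 features (1.42%), 64 of them named genes, the haemoglobin genes, Fst and Cryl1 among them.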

How the data were processed

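Renal cortex RNA of 12 rats was hybridised to 12 Agilent arrays in 1 colour, and the 6 cisplatin arrays form the comparison. The deposited intensity of each spot is the processed signal, background-subtracted within an array and not normalized between arrays, per the file headers. Per the submitters' processing notes, the authors used Agilent Feature Extraction 10.7. The authors' deposited value table holds a linear ratio, the processed signal divided by the array's 75th percentile. Deposited flags for spots well above background, saturated or uneven were used per the file headers.

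Here log2 processed intensity minus each array's 75th percentile was taken over 61537 probes without control spots, and 40 uneven spots on the 6 arrays were left out. Of these probes 28206 matched 1 symbol through RefSeq accessions in the GRCr8 table and 33331 none. Probe positions are left out, since the array was designed on rn4. Where a gene had several probes (9036 genes), its brightest by mean over the 6 arrays represented it. Group means were fitted by limma (version 3.58.1, under R 4.3.3), two-sided, on 4 residual degrees of freedom plus a prior of 2.36, with Benjamini-Hochberg adjustment over 33560 features. The script was tested on simulated data. With 3 arrays a group, their number limits the precision.

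Genes were named as up to 4 members of each of 41 lists with the smallest p, 12 genes kept whatever their p, and up to 5 bounds in each direction. The rule for the largest called genes named none, so the 20 largest separated differences in each direction at an unadjusted p under 0.05 were added after their values were seen. The members and lists were chosen with earlier results of these data known. Alternatives were the scaling, background, filter, probe choice, sample set, slide and replicate block, and each array left out. The normexp alternative used the median spot signal in place of the mean signal planned for it, which is not a column of the files used here. Gavage cisplatin replicate 1 shares its slide with gavage water arrays. Same-numbered cisplatin arrays of the 2 experiments had correlations of their deviations of -0.09, 0.18 and -0.35, so the numbers do not pair them. A few genes are not reported here.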

Additional observations from a re-analysis of the deposited data

Results flagged for a closer look

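In the fit to all 12 arrays, the intravenous minus gavage difference was compared between the cisplatin and the water animals. It differed (limma, adjusted p under 0.05) for 10 of the 203 genes named by rule, against 477 of 33560 features (1.42%). The 10 had been named for a small p or a large difference in the cisplatin comparison. That difference enters this contrast, so the values below give no separate support. Each value here is the cisplatin difference less the water difference on the log2 scale. The haemoglobin genes gave 4.59 for Hbb-b1, 4.59 for Hbe2, 4.47 for Hbb, 4.42 for Hba-a3, 4.12 for Hbb-bs and 2.64 for Hba-a1, with adjusted p of 0.0394 to 0.0408. Their probes may share transcripts. Cryl1 gave 1.76 (SE 0.32, adjusted p = 0.0394) and Xrcc4 0.85 (SE 0.15, adjusted p = 0.0394), with a water difference of -0.45 for Xrcc4. Ftl1 gave 0.51 (SE 0.10, adjusted p = 0.0467), and Fst gave -1.24 (SE 0.26, adjusted p = 0.0496), close to the threshold. Route, dose and slide differ between the groups in each of these contrasts and cannot be told apart.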

How the results depend on the processing

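No feature was called for intravenous against gavage cisplatin in 17 of the 19 alternatives, in which 1213 to 7181 features were under an unadjusted p of 0.05. All 12 arrays in 1 fit called 12, 9 of them higher and 3 lower, and slide as a random block called 1, lower, with a within-slide correlation of -0.18. The replicate block, with 2 residual degrees of freedom, called 0, with 2280 under an unadjusted p of 0.05. Leaving out each array gave 0 calls, with 1472 (without intravenous replicate 3) to 7181 (without intravenous replicate 1) under that p. Of 203 named genes, 2 changed sign with the mean of all probes, 3 against the slide 1 gavage array alone, and 1 each without gavage replicate 3, intravenous replicate 1 and intravenous replicate 3. Normexp background correction moved 19 of the 203 by over 1.5 times, all toward 0, and the other scalings none. Scaling on the spike-in probes moved the median of all features from -0.05 to 0.02, and from -0.02 to 0.15 in water. The water comparison called 1011 features, against 1949 with spike-in scaling, 0 in the 12-array fit, 0 with the replicate block and 146 to 388 without 1 array. Dim probes and 3 animals a group limit what could be detected.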
